A study of Mus musculus with 2 samples.

Results

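The CpG methylation of 10 naive pluripotency genes was read in 2 mouse haploid embryonic stem cell lines, each gene with 20 kb of flank on either side. The genes are Pou5f1, Nanog, Sox2, Klf2, Klf4, Esrrb, Tfcp2l1, Zfp42, Prdm14 and Nr0b1, a named list of 10 among 49943 genes with a position in the RefSeq table of mm10. The list follows from the names of the genes and not from a measured value, although it was drawn up with earlier results of these data known. A CpG entered the comparison where each library had 10 reads or more, which gave 775 CpGs in these genes and flanks out of 1030368 in all.

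A129-2 is a line on a 129Sv background and AOS-14 a line on a C57BL/6 background, with 1 library of genomic DNA each. Both were sorted from AG-haploid embryos and kept in embryonic stem cell medium, and the labels name no treatment in either. The study profiled the methylation of such cells, so the one comparison is A129-2 with AOS-14. Line and strain cannot be told apart, and no difference has a replicate check. Each test sets the reads of 1 library against the other, with counting error at most. RNA was not measured, so the cell type label could not be checked by the expression of these markers.

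Naive pluripotency is held by a network of transcription factors that bind their own and each other's enhancers. Pou5f1 encodes Oct4, which binds DNA together with Sox2 and Nanog. Klf2, Klf4, Esrrb, Tfcp2l1, Prdm14 and the orphan nuclear receptor Nr0b1 add to this core, and Zfp42, also called Rex1, is a zinc finger protein gene used as a marker of the naive state. CpG islands, which are stretches dense in CpGs at many gene starts, are usually free of methylation, while starts poor in CpGs can carry it. Mouse embryonic stem cells in the naive state are known for low methylation over the genome.

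The promoters of these genes differ in how many CpGs they hold, and 4 of them are shown, a pair with many compared CpGs and a pair with none. Each is the 250 bases before an annotated start, from RefSeq promoter sequences of GRCm38.p6, 5′ to 3′ on the strand of the gene. In Klf2 (chr8:72318812-72319061, plus strand) and Tfcp2l1 (chr1:118627695-118627944, plus strand) the capitals mark CpGs that were compared. In Nanog (chr6:122707239-122707488, plus strand) the capitals mark a match, on the opposite strand, to the Oct-Sox composite motif, which is CATTGT, any base and then ATGCAAA, and in Zfp42 (chr8:43307010-43307259, minus strand) a match, likewise on the opposite strand, to the octamer ATGCAAAT.
Klf2: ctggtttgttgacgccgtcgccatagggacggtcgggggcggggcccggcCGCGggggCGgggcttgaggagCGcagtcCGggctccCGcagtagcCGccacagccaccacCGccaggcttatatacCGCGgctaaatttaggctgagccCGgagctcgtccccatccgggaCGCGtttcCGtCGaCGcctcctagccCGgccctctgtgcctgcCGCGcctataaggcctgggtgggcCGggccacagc
Tfcp2l1: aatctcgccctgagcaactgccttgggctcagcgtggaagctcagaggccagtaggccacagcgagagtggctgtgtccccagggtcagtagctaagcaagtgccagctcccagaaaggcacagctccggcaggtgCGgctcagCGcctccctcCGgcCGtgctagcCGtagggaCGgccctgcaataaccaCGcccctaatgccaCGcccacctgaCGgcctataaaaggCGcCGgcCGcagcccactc
Nanog: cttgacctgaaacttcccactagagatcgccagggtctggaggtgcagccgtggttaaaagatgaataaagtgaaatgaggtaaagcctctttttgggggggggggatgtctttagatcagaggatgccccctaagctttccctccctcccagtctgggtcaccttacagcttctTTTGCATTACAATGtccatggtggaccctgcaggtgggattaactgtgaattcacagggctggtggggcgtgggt
Zfp42: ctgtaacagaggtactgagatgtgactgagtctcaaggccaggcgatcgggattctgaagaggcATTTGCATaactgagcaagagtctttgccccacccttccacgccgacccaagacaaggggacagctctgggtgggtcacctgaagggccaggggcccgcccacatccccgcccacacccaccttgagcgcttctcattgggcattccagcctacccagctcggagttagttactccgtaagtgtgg

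The Klf2 stretch holds 29 CpGs, of which 20 were compared, at 3.16% in A129-2 against 3.76% in AOS-14. The Tfcp2l1 stretch holds 16, of which 12 were compared, with 2.66% in A129-2 against 3.33% in AOS-14. Nanog has 3 CpGs in this stretch and Zfp42 has 9, and none of them was compared, so the capitals there sit in sequence without a methylation value. On both strands, the composite was found in 2 of 32851 promoter entries, both of them annotated starts of Nanog. The octamer was in 1.60% of all entries and CCGG in 47.1%. A match is a description of letters and not a bound site. The ratio of observed to expected CpGs in these stretches was 0.941 in Klf4, 0.915 in Klf2, 0.833 in Sox2, 0.609 in Tfcp2l1 and 0.546 in Nr0b1. It was 0.423 in Zfp42, 0.334 in Pou5f1, 0.264 in Esrrb and 0.182 in Nanog, with a median of 0.373 over all entries. Prdm14 has no entry in the promoter table and is named only.

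Median depth at their compared CpGs was 86 reads in A129-2 against 112 in AOS-14, beside 79 and 97 over all compared CpGs. A level is the mean over CpGs of methylated reads over all reads, and differences subtract AOS-14 from A129-2, in percentage points. Each gene was cut into a promoter, from 1 kb outside to 0.5 kb inside its start, a body, and an upstream and a downstream flank. Regions with at least 5 compared CpGs were tested by Fisher's exact test on summed reads. Benjamini-Hochberg adjustment ran over the same kind of region of all genes. Calls were made at an adjusted p under 0.05 with no minimum difference. A read over several CpGs was counted at each of them, so summed reads are not independent observations. Region intervals and p values therefore overstate certainty.

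Over all 775 CpGs these genes stood at 6.15% in A129-2 against 10.4% in AOS-14, and Zfp42 had the widest gap. It held 74 of the CpGs and had 12.8% in A129-2 against 35.6% in AOS-14. The other genes held 701 CpGs, with 5.45% in A129-2 against 7.79% in AOS-14. Of the 775 CpGs, 463 were lower in A129-2, 148 were equal and 164 were higher. Tested one by one with Fisher's exact test at an adjusted p under 0.05, 74 were lower in A129-2, which is 9.55%, and 0 were higher. Over all compared CpGs 12.9% were lower and 0.154% higher. Zfp42 supplied 52 of the 74 CpGs called lower, which is 70.3% of its own CpGs, while in the other genes 22 of 701 were called, or 3.14%. With a minimum difference of 25 points, 34 CpGs were called, of which 31 lay in the Zfp42 upstream flank, 2 in the Zfp42 body and 1 upstream of Klf4, and over all compared CpGs this share was 4.08%.

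The level of a CpG went with its motif in both lines. The 240 CpGs inside CCGG had 14.8% in A129-2 against 21.5% in AOS-14, and the other 535 had 2.29% in A129-2 against 5.47% in AOS-14. Over all compared CpGs the same classes had 18.9% and 4.74% in A129-2, and 27.9% and 8.49% in AOS-14. Differences between the genes below therefore hold the share of CCGG among their CpGs, and that share was not matched.

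**Figure D1:**
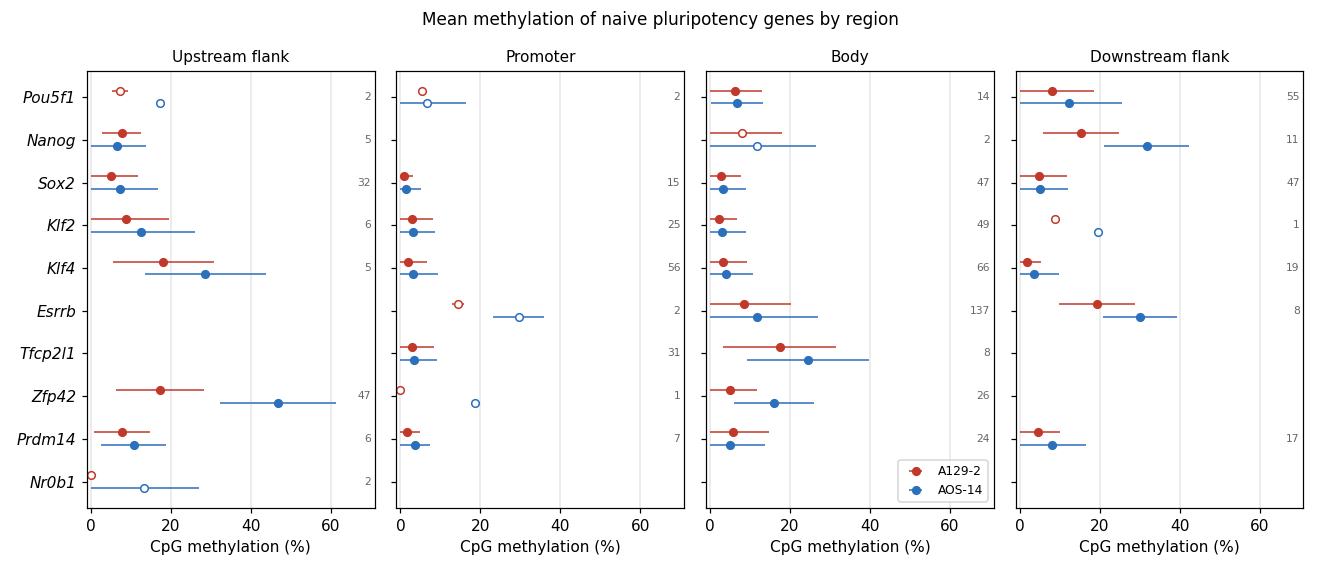
Mean CpG methylation in percent (points) of each gene in the upstream flank, promoter, body and downstream flank, for A129-2 (red, above) and AOS-14 (blue, below). Bars are the SD over CpGs, drawn down to 0 at most, grey numbers are compared CpGs, and open points are regions with fewer than 5 of them. The Zfp42 upstream flank, at 17.4% in A129-2 against 46.8% in AOS-14, has the widest gap among the tested regions, while tested promoters lie under 4% in both lines.

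The promoters with enough CpGs to be tested were nearly free of methylation in both lines. Of these 5, 1 was lower in A129-2 and 0 were higher, while over all genes 29.8% of 14406 tested promoters were lower and 0.569% higher. The medians of the 5 were 1.95% in A129-2 against 3.22% in AOS-14, and over all tested promoters they were 2.88% and 3.59%. Klf4, a zinc finger factor of the naive network, was the one called, with 1.95% ± 4.61 in A129-2 against 3.22% ± 6.19 in AOS-14 (SD over 56 CpGs; Fisher's exact test, adjusted p = 6.17e-05). Its levels overlapped from CpG to CpG. Of the 56 CpGs, 27 were lower in A129-2, 13 were higher and the others were equal. Outside CCGG the difference was -0.522 points in place of -1.27.

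Sox2, whose promoter lies inside the noncoding gene Sox2ot, had 0.858% in A129-2 against 1.34% in AOS-14 over 15 CpGs (Fisher's exact test, adjusted p = 0.189). Klf2 had 2.84% in A129-2 against 3.12% in AOS-14 over 25 CpGs, from 6084 and 2800 reads (exact test, adjusted p = 0.327). Tfcp2l1, a factor of the Grainyhead family, had 2.83% in A129-2 against 3.44% in AOS-14 over 31 CpGs (exact test, adjusted p = 0.352). Prdm14, a PR domain protein known to hold down de novo methyltransferase genes, had 1.72% in A129-2 against 3.57% in AOS-14 over 7 CpGs, with its start placed by CpG density and not by annotation (exact test, adjusted p = 0.350). These 4 promoters did not pass the test, which does not show that the lines are alike there.

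The other promoters held too few compared CpGs to be tested. Pou5f1 had 2 compared CpGs, with means of 5.32% in A129-2 against 6.76% in AOS-14 from 38 and 73 reads. Esrrb, an orphan nuclear receptor gene, also had 2, with 14.4% in A129-2 against 29.5% in AOS-14 from 28 and 64 reads. Zfp42 had 1, with 0 of 16 reads methylated in A129-2, which allows up to 20.6% (exact 95% interval), and 18.5% of 27 reads in AOS-14. Nanog and Nr0b1 had 0. A second annotated start of Esrrb, 60.5 kb inside the gene, lies in a CpG-dense stretch and had 3.51% in A129-2 against 5.12% in AOS-14 over 27 CpGs of its promoter window.

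Zfp42 differed most of the 10 genes, and by mean levels over CpGs the difference covered its upstream flank and its 3′ end. The gene lies at chr8:43295067-43307009 on the minus strand. In the upstream flank, 47 CpGs had a mean of 17.4% ± 11.03 in A129-2 against 46.8% ± 14.5 in AOS-14 (SD over CpGs), a difference of -29.4 points. Summed reads gave 15.8% in A129-2 (exact 95% interval 14.6 to 17.1, 3518 reads) and 42.3% in AOS-14 (41.4 to 43.2, 11307 reads), with an adjusted p of 2.45e-195 in Fisher's exact test. All 47 CpGs were lower in A129-2, and 38 of them were called one by one. This was the one flank of the members to pass 25 points, which 1.65% of all tested upstream flanks did.

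The methylated stretch upstream of Zfp42 came mostly in 4 clusters of CpGs. Distances before the start are negative. The cluster nearest to it, from -6.2 to -6.03 kb, had 21.8% in A129-2 against 56.5% in AOS-14 over 9 CpGs. The next, from -8.97 to -8.91 kb, had 23.6% in A129-2 against 56.1% in AOS-14 over 4 CpGs. From -12.2 to -11.1 kb, 14 CpGs had 13.98% in A129-2 against 46.5% in AOS-14. The farthest, from -13.3 to -12.7 kb, had 14.3% in A129-2 against 38.4% in AOS-14 over 17 CpGs. In each cluster every compared CpG was lower in A129-2, and no annotated gene of the RefSeq table lies in the flank. The CpG with the largest called difference, at position 43315978, had 20% of 45 reads in A129-2 and 65.7% of 198 reads in AOS-14. Both motif classes showed the gap. CCGG CpGs had 24.6% in A129-2 against 55.5% in AOS-14, and other CpGs 13.997% in A129-2 against 42.7% in AOS-14.

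**Figure D2:**
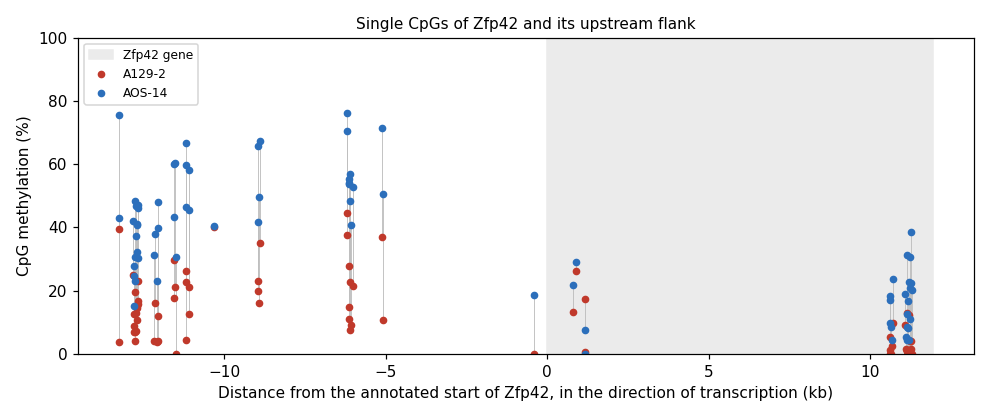
Methylation in percent of each compared CpG of Zfp42 and its upstream flank in A129-2 (red) and AOS-14 (blue) against the distance from the annotated start in kb, with the gene in grey. Thin lines join the levels of 1 CpG. The flank CpGs average 17.4% in A129-2 against 46.8% in AOS-14, and the CpGs near the 3′ end 3.25% in A129-2 against 16.3% in AOS-14.

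The body of Zfp42 had 4.97% ± 6.67 in A129-2 against 16.0% ± 9.95 in AOS-14 over 26 CpGs, a difference of -11.1 points (Fisher's exact test, adjusted p = 8.55e-77). By mean levels over CpGs, the ends of the gene were unlike. Near the 3′ end, 10.6 to 11.3 kb inside, 22 CpGs had 3.25% in A129-2 against 16.3% in AOS-14, and all 22 were lower in A129-2. Near the start, 0.794 to 1.16 kb inside, 4 CpGs had 14.4% in A129-2 against 14.5% in AOS-14, and 2 of the 4 were lower in A129-2. Whether the ends differ from each other was not tested.

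Read depth at Zfp42 was uneven as well. The upstream flank had 3.21 times as many reads in AOS-14 as in A129-2, a ratio that 83 of 15127 flanks reached. With CpGs whose reads differed by at most 4 times the difference was -27.5 points, and with each CpG as a stratum the adjusted p was 1.03e-188 (Cochran-Mantel-Haenszel test). The body had a read ratio of 0.985.

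Against genes of like methylation, the Zfp42 flank was low in A129-2 but inside the usual range. The 1072 upstream flanks at 40% or more in AOS-14 had medians of 26.0% in A129-2 against 44.9% in AOS-14, with a median ratio of 0.573, and Zfp42 had a ratio of 0.372. Flanks at 45% to 50% in AOS-14 had a median of 27.1% in A129-2 with a central 95% from 15.6%, below the Zfp42 level of 17.4%. By the size of its difference the flank ranked 105 of 15127. The Zfp42 body, in contrast, lay under the central 95% of the 1826 bodies at 15% to 20% in AOS-14, which began at 7.0% in A129-2 with a median of 11.5%. These are descriptions of the libraries with no test.

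**Figure D3:**
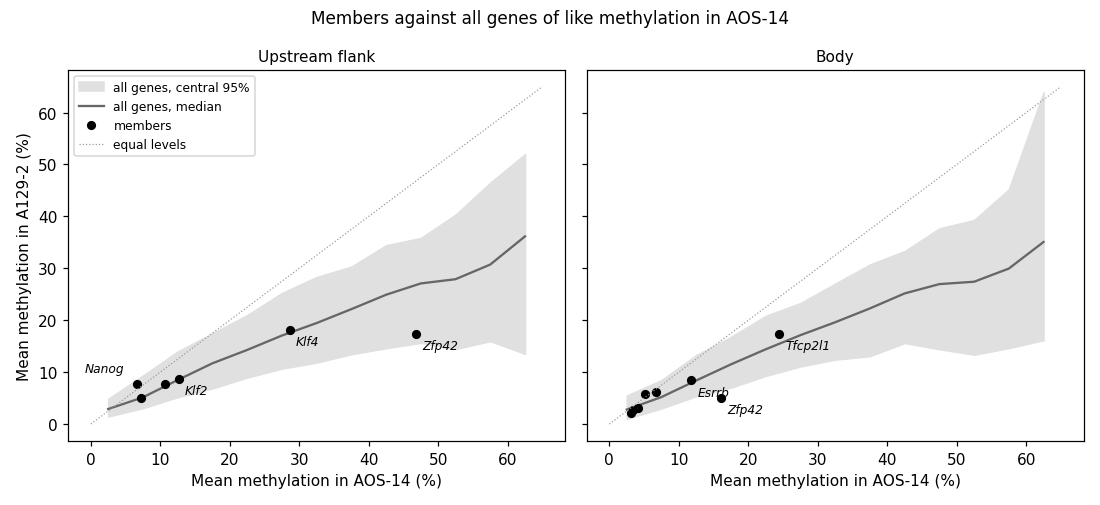
Mean methylation in percent in A129-2 (vertical) against AOS-14 (horizontal) for upstream flanks and bodies. Black points are members with at least 5 compared CpGs, the grey line and band are the median and central 95% of all genes in steps of 5% of AOS-14, and the dotted line marks equal levels. The Zfp42 body at 4.97% lies under the band that begins at 7.0%, and the Zfp42 flank at 17.4% lies just inside the band that begins at 15.6%.

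No other member region passed 25 points. Of the promoters, bodies and downstream flanks of the members 0 did, while over all genes 0.437%, 1.22% and 1.61% were lower by that much. Higher by that much were 0% of upstream and downstream flanks, 0.0139% of promoters, 0.00678% of bodies and 0.0297% of CpGs over all genes, and 0 of the members.

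The flanks of these genes were lower in A129-2 about as often as flanks in general. Of 6 upstream flanks tested, 5 were lower in A129-2 and 0 higher, while over all genes 80.6% were lower and 0.483% higher. Of 6 downstream flanks, 4 were lower and 0 higher, with 80.9% lower and 0.589% higher over all genes. The shares of members lie near these, so they are no result about the members. Median levels of the 6 upstream flanks were 8.22% in A129-2 against 11.7% in AOS-14, beside 11.5% and 17.8% over all genes. Those of the 6 downstream flanks were 6.42% in A129-2 against 10.2% in AOS-14, beside 10.1% and 15.5%.

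Nanog had the widest gap among downstream flanks. There 11 CpGs had 15.3% ± 9.53 in A129-2 against 31.7% ± 10.6 in AOS-14, a difference of -16.5 points, and all 11 were lower in A129-2 (Fisher's exact test, adjusted p = 1.58e-25). Of these CpGs, 7 form a cluster inside the glucose transporter gene Slc2a3, with 15.4% in A129-2 against 32.3% in AOS-14. The CpG with the largest called difference, at chr6:122730025, had 24.0% of 150 reads in A129-2 and 47.2% of 72 in AOS-14. Upstream of Nanog, 5 CpGs between -4.625 and -4.42 kb had 7.67% in A129-2 against 6.60% in AOS-14, the one flank with a higher mean in A129-2 (exact test, adjusted p = 0.663). The body of Nanog held 2 compared CpGs, too few to test.

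Among compared CpGs, Esrrb carried the highest single levels of the 10 genes, within a gene of 160.5 kb at chr12:86361117-86521628. A cluster of 4 CpGs 46.0 to 46.1 kb inside had 47.2% in A129-2 against 57.5% in AOS-14, with a highest CpG of 67.8% in A129-2 against 83.6% in AOS-14. All 3 member CpGs of 50% or more in A129-2 were in Esrrb, whereas AOS-14 had 23 such CpGs, 17 of them in Zfp42. The CpG with the largest called difference, at chr12:86407115 in the same cluster, had 11.7% of 300 reads in A129-2 and 35.9% of 145 in AOS-14. Over its body, 137 CpGs had 8.41% ± 11.9 in A129-2 against 11.8% ± 15.3 in AOS-14 (Fisher's exact test, adjusted p = 1.14e-21). Outside CCGG the difference of the body was -1.74 points in place of -3.38. A stretch from 60.6 to 62.7 kb inside, around the second start, was low, with 5.27% in A129-2 against 6.28% in AOS-14. Downstream, 8 of 8 CpGs were lower in A129-2, at 19.3% in A129-2 against 30.1% in AOS-14 (exact test, adjusted p = 2.86e-73).

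Klf4 had a methylated patch far upstream of its nearly unmethylated start. In the upstream flank 5 CpGs had 18.1% in A129-2 against 28.7% in AOS-14 (Fisher's exact test, adjusted p = 0.0126), a difference of -10.6 points that was -6.43 points from summed reads. The 3 of them near -16.8 kb, inside the gene model Gm12506, had 19.9% in A129-2 against 37.9% in AOS-14. One of these, at chr4:55549264, had 0 of 76 reads methylated in A129-2, which allows up to 4.74% (exact 95% interval), and 27.5% of 298 reads in AOS-14 (exact test, adjusted p = 5.69e-08). Downstream of Klf4, 19 CpGs had 1.84% in A129-2 against 3.56% in AOS-14 (exact test, adjusted p = 0.610).

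Klf2 was lower in A129-2 upstream, at 8.69% in A129-2 against 12.6% in AOS-14 over 6 CpGs (Fisher's exact test, adjusted p = 6.79e-06). The 2 called one by one lie near -11.2 kb, both inside CCGG. The 4 others, near -13.8 kb in the gene model Gm10282, had 6.76% in A129-2 against 5.03% in AOS-14. Their higher mean rests on 1 CCGG CpG, with 27.0% of 37 reads in A129-2 and 16.7% of 72 in AOS-14. Summed reads of these 4 gave 3.09% in A129-2 against 3.35% in AOS-14. The 3 CpGs outside CCGG had 0% in A129-2 against 1.16% in AOS-14. The CpG with the largest called difference, at chr8:72307894, had 12.8% of 704 reads in A129-2 and 31.1% of 350 in AOS-14. Sox2 was lower upstream, at 5.03% in A129-2 against 7.27% in AOS-14 over 32 CpGs (exact test, adjusted p = 0.000231). With flanks of 10 kb the Sox2 difference was -1.23 points and no longer passed (exact test, adjusted p = 0.0655). Downstream of Sox2, 47 CpGs had 4.74% in A129-2 against 5.16% in AOS-14 (exact test, adjusted p = 0.462). The CpG clusters in both Sox2 flanks overlap Sox2ot.

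Prdm14 was lower in A129-2 on both sides. Upstream, 6 CpGs had 7.76% in A129-2 against 10.7% in AOS-14 (Fisher's exact test, adjusted p = 0.00150). With each CpG as a stratum the adjusted p was 0.0464, close to the threshold (Cochran-Mantel-Haenszel test). The 2 of them outside CCGG had 0.606% in A129-2 against 1.08% in AOS-14. Downstream, 17 CpGs had 4.55% in A129-2 against 7.96% in AOS-14, and 16 of the 17 were lower in A129-2 (exact test, adjusted p = 0.000450). All 17 form a cluster that overlaps the gene model Gm39592. The upstream difference of -2.95 points was -5.71 with at least 5 reads, and the downstream one of -3.41 points was -1.20 outside CCGG. Nr0b1, on the X chromosome, had 2 compared CpGs in all, upstream of the gene, with 0 of 64 reads methylated in A129-2, which allows up to 5.60% (exact 95% interval), and 6.32% of 95 reads in AOS-14 (2.35 to 13.2), so the intervals overlap. Tfcp2l1 had no compared CpG in either flank, Esrrb had none upstream, and Zfp42 and Nr0b1 had none downstream. Pou5f1 had 2 upstream, at 7.29% in A129-2 against 17.2% in AOS-14 from 57 and 92 reads, and Klf2 had 1 downstream, too few to test.

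**Figure D4:**
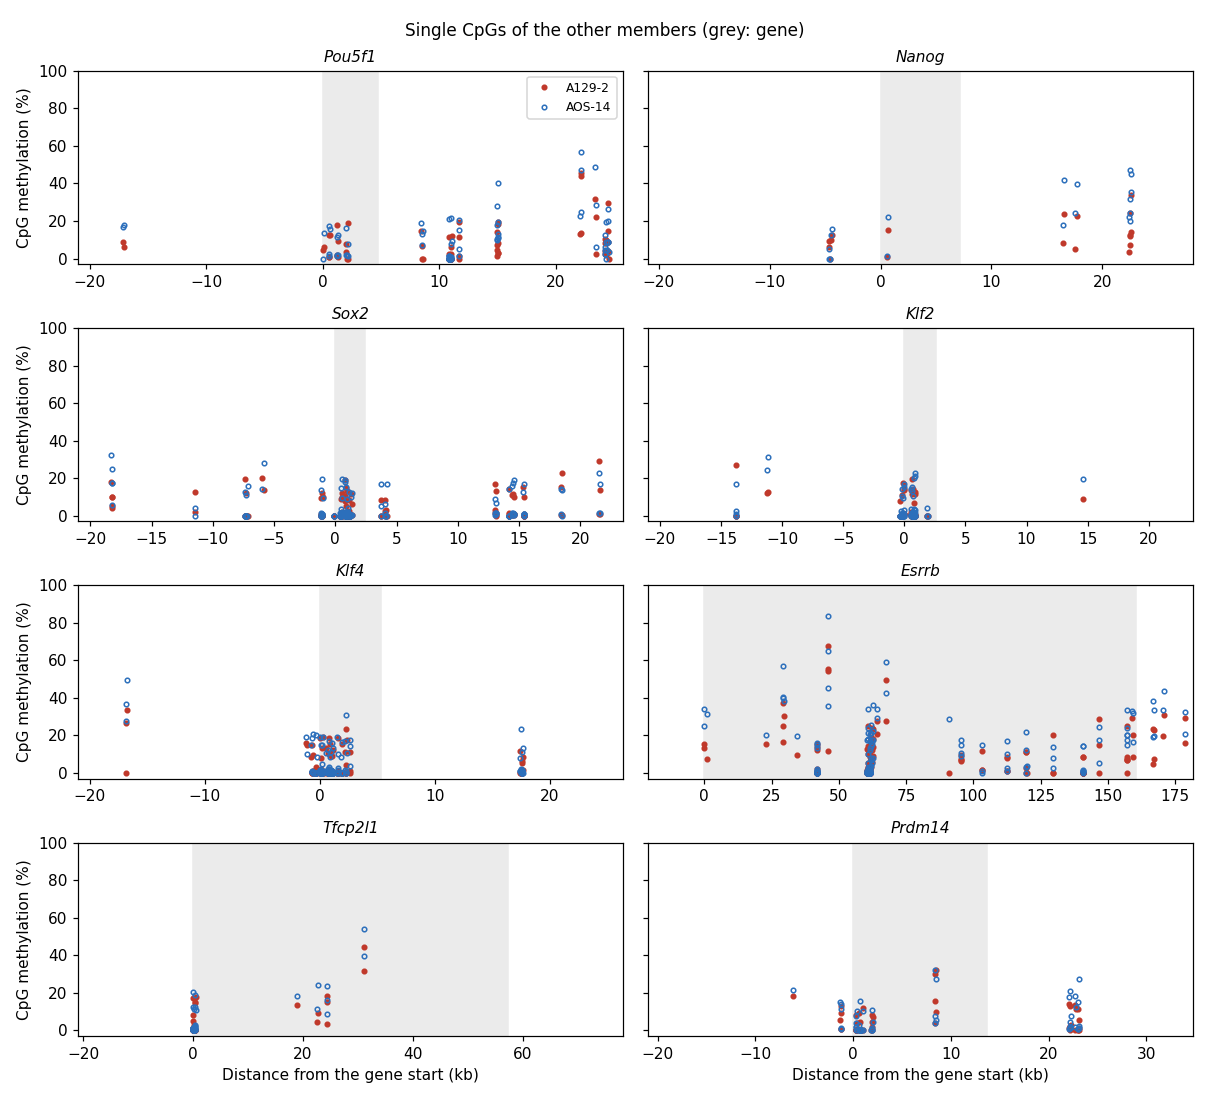
Methylation in percent of each compared CpG in A129-2 (filled red) and AOS-14 (open blue) against the distance from the gene start in kb for 8 members, with the gene in grey. Starts of Sox2, Klf2, Klf4 and Tfcp2l1 hold dense CpGs at low levels in both lines, and the highest points are those of Esrrb, at 67.8% in A129-2 against 83.6% in AOS-14.

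Median levels of the members' bodies were under those of all bodies in both lines, and Zfp42, given above, had the widest gap. Of 8 bodies tested, 6 were lower in A129-2 and 0 higher, while over all genes 81.1% were lower and 0.298% higher. Their medians were 5.36% in A129-2 against 5.90% in AOS-14, beside 11.5% and 18.0% over all bodies. Tfcp2l1 had the highest mean levels, at 17.4% in A129-2 against 24.5% in AOS-14 over 8 CpGs (Fisher's exact test, adjusted p = 0.0126). Klf4 had 3.16% in A129-2 against 4.07% in AOS-14 over 66 CpGs (exact test, adjusted p = 0.00431). Klf2 had 2.15% in A129-2 against 3.05% in AOS-14 over 49 CpGs (exact test, adjusted p = 0.00806), and outside CCGG its difference of -0.395 points no longer passed (exact test, adjusted p = 0.0575). Sox2 had 2.74% in A129-2 against 3.34% in AOS-14 over 47 CpGs (exact test, adjusted p = 0.0833), and was called lower with each CpG as a stratum (adjusted p = 0.0226, Cochran-Mantel-Haenszel test). Prdm14 was the one body with a higher mean in A129-2, at 5.74% in A129-2 against 5.06% in AOS-14 (exact test, adjusted p = 0.250).

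With each CpG as a stratum, in place of summed reads, 1 promoter, 7 bodies, 5 upstream flanks and 4 downstream flanks of the members were lower in A129-2. Over all genes these shares were 32.9%, 82.9%, 83.4% and 83.9%.

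Pou5f1 stood out by read depth and not by methylation. Between 0.551 and 8.565 kb inside and beyond its start, the median depth of 18 CpGs was 61 reads in A129-2 against 2914 in AOS-14. The ratio of AOS-14 to A129-2 reads there ran from 15.3 to 85.5 with a median of 18.8, while its median over all compared CpGs was 1.24 with a central 95% from 0.432 to 3.36. Before 0.5 kb the median ratio was 1.77 over 4 CpGs, and beyond 10.8 kb it was 1.27 over 51 CpGs. These CpGs lie from 0.551 to 2.156 kb inside Pou5f1 and from 8.472 to 8.565 kb, in the neighbouring gene Tcf19. No CpG was compared between these places, so the depth there is not known from these values. Of 14759 tested bodies Pou5f1 alone had a ratio this high, at 17.4. The labels give nothing that bears on it, and its cause was not tested.

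**Figure D5:**
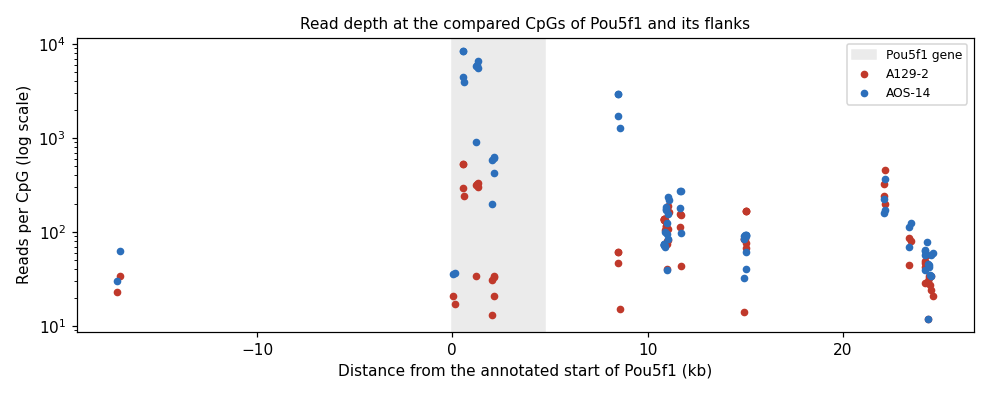
Reads per CpG on a log scale in A129-2 (red) and AOS-14 (blue) at the compared CpGs of Pou5f1 and its flanks against the distance from the annotated start in kb, with the gene in grey. From 0.551 to 8.565 kb the median is 61 reads in A129-2 against 2914 in AOS-14, and beyond 10.8 kb it is 85 reads in both.

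In the Pou5f1 body (chr17:35506532-35510777), 14 CpGs had 6.25% ± 6.79 in A129-2 against 6.75% ± 6.46 in AOS-14, from 3026 and 52554 reads. The difference of -0.503 points was called (Fisher's exact test, adjusted p = 0.00243), but with at least 20 reads it was 0.136 points, against the direction of the summed reads. Whether the depth in AOS-14 bears on its level there was not tested. Downstream of Pou5f1, 55 CpGs had 8.10% in A129-2 against 12.4% in AOS-14 (exact test, adjusted p = 2.46e-06), and most of them lie inside the neighbours Tcf19 and Cchcr1. The difference of -4.34 points was -2.49 from summed reads. A cluster 22.1 to 22.2 kb from the start, in Cchcr1, had the highest levels, at 29.1% in A129-2 against 37.8% in AOS-14 over 4 CpGs. The CpG with the largest called difference, at chr17:35517008, had 6.25% of 80 reads in A129-2 and 21.8% of 124 in AOS-14 (exact test, adjusted p = 0.0253).

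Other pluripotency genes had low tested promoters as well, and so, by median, did all genes. Of 25 further naive and general pluripotency genes, 12 promoters could be tested, of which 7 were lower in A129-2 and 0 higher. Their medians were 2.57% in A129-2 against 3.34% in AOS-14, beside 2.88% and 3.59% over all tested promoters, of which 29.8% were lower. Lin28a, an RNA-binding protein gene, had 4.95% in A129-2 against 8.53% in AOS-14 (Fisher's exact test, adjusted p = 0.00589). Klf5, a relative of Klf4, had 1.11% in A129-2 against 2.96% in AOS-14 (exact test, adjusted p = 0.0748), and Utf1 had 2.56% in A129-2 against 2.93% in AOS-14 (adjusted p = 0.452). Il6st, a receptor subunit gene, was called, at 3.68% in A129-2 against 4.06% in AOS-14 (exact test, adjusted p = 0.0285). Mybl2, named after its values were seen as the one with a higher mean in A129-2, had 2.21% in A129-2 against 1.44% in AOS-14 and did not pass (exact test, adjusted p = 0.414).

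Genes of the formative and primed states, which follow the naive state, had low tested promoters too, as did, by median, all genes. Of 16, 11 promoters could be tested, of which 5 were lower in A129-2 and 0 higher, with medians of 2.47% in A129-2 against 3.93% in AOS-14. Tcf15 had 3.67% in A129-2 against 5.70% in AOS-14, and Sox3 had 2.39% in A129-2 against 3.93% in AOS-14, and neither passed (Fisher's exact test, adjusted p = 0.40 and 0.0767). Pou3f1 had 1.97% in A129-2 against 2.32% in AOS-14 (exact test, adjusted p = 0.237). The methyltransferase gene Dnmt3b was called, at 2.02% in A129-2 against 2.36% in AOS-14 (exact test, adjusted p = 0.00880). Over all promoters 29.8% were lower, with medians of 2.88% and 3.59%, and whether the lists differ from that was not tested.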

How the data were processed

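Per the file headers, the authors deposited for every CpG a fraction of methylated reads and the counts it rests on, in 1 table per library. Levels were recomputed from the deposited counts and are given in percent. Per the labels' protocols, DNA was captured with a methylation panel, treated with bisulfite and read as pairs, while the titles name RRBS, which cuts at CCGG. Per the submitters' processing notes, BSMAP and mm10 were used. Its version and how duplicate reads were handled: not given in the sources used here. Uneven duplicates or reads with several positions would change depth and levels. mm10 rests on C57BL/6, and strain variants at CpGs, which can read as unmethylated, were not tested.

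RefSeq's table of GRCm38.p6 gave gene positions. Strand came from RefSeq promoter entries for 27025 genes. For 5293 others, Prdm14 among them, the start was the gene end with more listed CpGs, where it had 5 or more and at least 2 times the number at the opposite end. The other 17625 got no start and no promoter. Regions were tested as given in the report. Their intervals cover counting error at most, since a read over several CpGs was summed once per CpG. Single CpGs had Fisher's exact test, two-sided, and Benjamini-Hochberg adjustment ran over all 1030368. The scripts were tested on simulated reads. There the test on summed reads made calls in regions without change, where the libraries spread their reads over CpGs unlike, so a Cochran-Mantel-Haenszel test with each CpG as a stratum was added after the data were seen. The members and lists were chosen with earlier results of these data known. Named CpGs are those with the largest called difference of each member in each direction, and of the other lists the 2 genes with the largest and the 2 with the smallest difference in size were named, with Mybl2 added. The alternatives varied reads, CCGG, summing, CpG number, difference, promoter and flank bounds, neighbouring genes and depth. Versions were Python 3.11.15, numpy 2.4.6, pandas 2.3.3, scipy 1.17.1, numba 0.67.0 and matplotlib 3.10.9.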

Additional observations from a re-analysis of the deposited data

Results flagged for a closer look

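CpGs with at least 100 reads in 1 library and under 10 in the other took no part in the comparison and are given here as values. At Zfp42, 23 such CpGs were read in AOS-14. Of these, 16 in the upstream flank, between -10.4 and -6.61 kb from the start, had levels from 26.6% to 86.9% with a median of 59.7%. A129-2 had at most 9 reads at each of these 16, with levels from 11.1% to 100%. Its levels of 100% rest on 1 or 2 reads, so the lines cannot be compared there. The 2 in the promoter had 0.763% and 12.6%, and the 5 in the body had 11.1% to 28.3%. Klf4 had 3 in A129-2, at 0.752% to 9.26%, and 7 in AOS-14, at 0% to 11.5%. Pou5f1 had 4 in A129-2, all 20.2 or 20.3 kb from the start, at 4.27% to 16.2%. Klf2 had 2 in A129-2, at 1.42% and 17.6%, and Tfcp2l1 had 1 in AOS-14, at 0.794%. Why depth differed at these CpGs was not tested.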

How the results depend on the processing

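No paired analysis was possible because each line has 1 library. Summed levels, a minimum of 3 CpGs and the test stratified by CpG leave the main test or the main difference as it is by construction. Under the other alternatives, 108 of 114 values of the tested regions kept their direction and their side of the threshold, 2 weakened, 1 gained a call and 3 turned. Many of the 114 repeat the main difference, because the alternative left the CpGs of the region as they were. The 108 therefore include values that could hardly change. The Zfp42 upstream flank ran from -34.4 points with flanks of 10 kb to -26.5 points from summed reads, and was called each time. Other called differences moved too. Outside CCGG they were -1.38 points upstream of Sox2, -0.522 at the Klf4 promoter, -0.521 in the Klf4 body, -0.395 in the Klf2 body, -1.74 in the Esrrb body and -1.20 downstream of Prdm14. From summed reads they were -6.43 upstream of Klf4, -6.28 upstream of Klf2, -0.586 in the Klf2 body, -1.30 in the Pou5f1 body, -2.49 downstream of Pou5f1 and -2.15 downstream of Prdm14. With flanks of 10 kb they were -1.23 upstream of Sox2 and -2.86 downstream of Pou5f1, and with at least 5 reads -5.71 upstream of Prdm14. The differences that turned were those of the Sox2 body at 0.430 points with at least 5 reads (Fisher's exact test, adjusted p = 0.160), the Sox2 downstream flank at 0.124 points with at least 20 reads and the Pou5f1 body at 0.136 points with at least 20 reads. The Pou5f1 body could not be fitted with reads within 4 times, since none of its CpGs qualified. Outside CCGG, 2 of 2 upstream flanks, 2 of 4 downstream flanks and 46 of 535 CpGs were lower. Fewer tested regions explain the first by construction. With a minimum of 10 points, 2 upstream flanks, 0 promoters, 1 body and 2 downstream flanks were lower. With 25 points these were 1, 0, 0 and 0, and 34 CpGs. With promoters from 2 kb outside, 2 were lower, Prdm14 joining Klf4 at -2.28 points (exact test, adjusted p = 0.00568). With flanks of 10 kb, 2 of 4 upstream and 2 of 3 downstream flanks were lower, and away from other genes 2 of 3 and 1 of 2. Apart from 25 points, shares over all genes under these settings are not given, so the counts are no result about the members. The cause of the changes between settings was not tested. The minimum of 10 reads, 1 library per line and few compared CpGs limit what can be told of Nanog, Nr0b1 and the starts of Pou5f1, Esrrb and Zfp42.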
